A study of Mus musculus with 4 samples.

Results

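The 4 Hox clusters were examined in ATAC-seq data of bone mesenchymal stem cells (MSCs) from old and young mice. A peak of the deposited list was counted as a Hox peak when it overlapped 1 of 38 Hox genes or the 5 kb upstream of the gene's start. This rule gave 46 of 117282 peaks, with 12 in Hoxa, 8 in Hoxb, 10 in Hoxc and 16 in Hoxd, and 19 of them touched several Hox genes. The old group had 2 samples from mice of 18 to 22 months and the young group 2 samples from mice of 3 to 5 months, and all 4 samples were cultured at 2% O2 throughout. ATAC-seq uses a transposase that inserts sequencing adapters into open DNA, so that the number of fragments at a site reflects its accessibility. The study's methods describe C57BL/6N wild-type mice, outgrowth from chips of hind-limb bone and sorting of Sca-1+ and CD140a+ cells that lacked the blood markers CD45 and Ter-119. They describe this for young mice, and the labels give no strain for either age group. The labels do not say whether the samples of a group came from separate animals, so p-values measure the spread between these samples only.

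Hox genes encode homeodomain transcription factors that give cells their position along the body and limb axes. They lie in 4 clusters in the order in which they are used along the head-to-tail axis, and genes at the same position in different clusters are paralogues, numbered from 1 at the anterior end to 13 at the posterior end. The posterior HoxA and HoxD genes pattern the limb from its upper to its distal segments, and HoxC genes are used in the hind limb and the trunk. Stromal cells of the adult are known to keep a Hox code of the site they came from. HOX proteins bind DNA together with the TALE cofactors of the PBX, MEIS and PKNOX families. The clusters also hold genes of 6 microRNAs, which are short RNAs that repress messenger RNAs through their seed, bases 2 to 8.

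Mature sequences of the cluster microRNAs were read from RefSeq (GRCm38.p6, 6 of 6 genes matched). They are shown with the seed in capitals, because 3 of these genes lay inside the widest Hox peaks and the other 3 lay in no peak.
miR-196a-5p: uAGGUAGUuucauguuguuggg
miR-196b-5p: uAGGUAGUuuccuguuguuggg
miR-10a-5p: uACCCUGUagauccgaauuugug
miR-10b-5p: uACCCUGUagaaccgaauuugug
miR-615-3p: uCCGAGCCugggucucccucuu
The miR-196a and miR-196b sequences share the seed AGGUAGU, the miR-10 pair share ACCCUGU, and miR-615-3p has the seed CCGAGCC. Mir196b (chr6:52230129-52230150 for the mature 5p arm, minus strand), Mir196a-2 (chr15:102973365-102973386, plus strand) and Mir615 (chr15:103014969-103014990, 3p arm, plus strand) each lay inside one of 3 very wide peaks described below. The mature arm of Mir196a-1 in the Hoxb cluster (chr11:96265187-96265208), which encodes the same mature RNA as Mir196a-2, was in no peak. Mir10a (chr11:96317186-96317208) and Mir10b (chr2:74726074-74726096) had no peak over the gene or the 5 kb upstream.

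Library totals recovered from the deposited values were between 28259470 and 32559794 counts, and 3 counts corresponded to a value between 0.921 and 1.06. A deposited value is a count per library total that was not divided by peak width, so peaks are compared with each other per kb. RLE factors, which are median ratios over peaks between a sample and the geometric mean across samples, were 0.813 and 1.01 in the old and 1.07 and 1.15 in the young samples. Values called RLE-scaled were divided by them. The mitochondrial share of the summed values was 6.52% in old replicate 2 and between 13.5% and 15.7% in the other samples, and values with library totals free of it are given at the end. The cell type of the labels was checked on marker genes. The 5′ end of the gene was in a peak for 11 of 11 stromal markers, for 2 of 9 blood markers and for 2 of 5 endothelial markers (Tek and Kdr), and Adgre1 and Cd3e had no peak. Summed values of the blood marker peaks were 930 and 1415 in the old and 1393 and 1364 in the young samples. In these bulk samples, fewer cells with a site open and less accessibility per cell cannot be told apart.

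The 4 clusters differed in how much of their length was called open. Peaks covered 65.3% of the 126 kb Hoxc cluster (chr15:102916103-103041852, mm10), 54.6% of the 108 kb Hoxa cluster (chr6:52157417-52265880) and 34.3% of the 107 kb Hoxd cluster (chr2:74663310-74770142). In Hoxb, the cluster with the longest span at 184 kb (chr11:96189316-96373256), peaks covered 7.39%. This span includes a stretch without Hox genes between the end of Hoxb13 (chr11:96197447) and the start of Hoxb9 (chr11:96271457), which lowers the share. The Hoxb peaks were also sparse in signal. Per kb of peak, their deposited value was 8.44 and 9.46 in the old and 11.2 and 10.7 in the young samples (replicates 1 and 2). The corresponding Hoxd values were 16.8, 19.9, 19.4 and 17.8, so that every sample was higher in Hoxd than any sample in Hoxb. Hoxa and Hoxc lay at the level of Hoxd, with ranges over the 4 samples from 13.8 to 22.9 in Hoxa and from 13.3 to 20.6 in Hoxc. Of the summed value of all Hox peaks, Hoxb contributed between 2.93% and 4.06% and Hoxc between 42.4% and 45.3%. The order of the other clusters by value per kb was not the same in every sample.

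**Figure D1:**
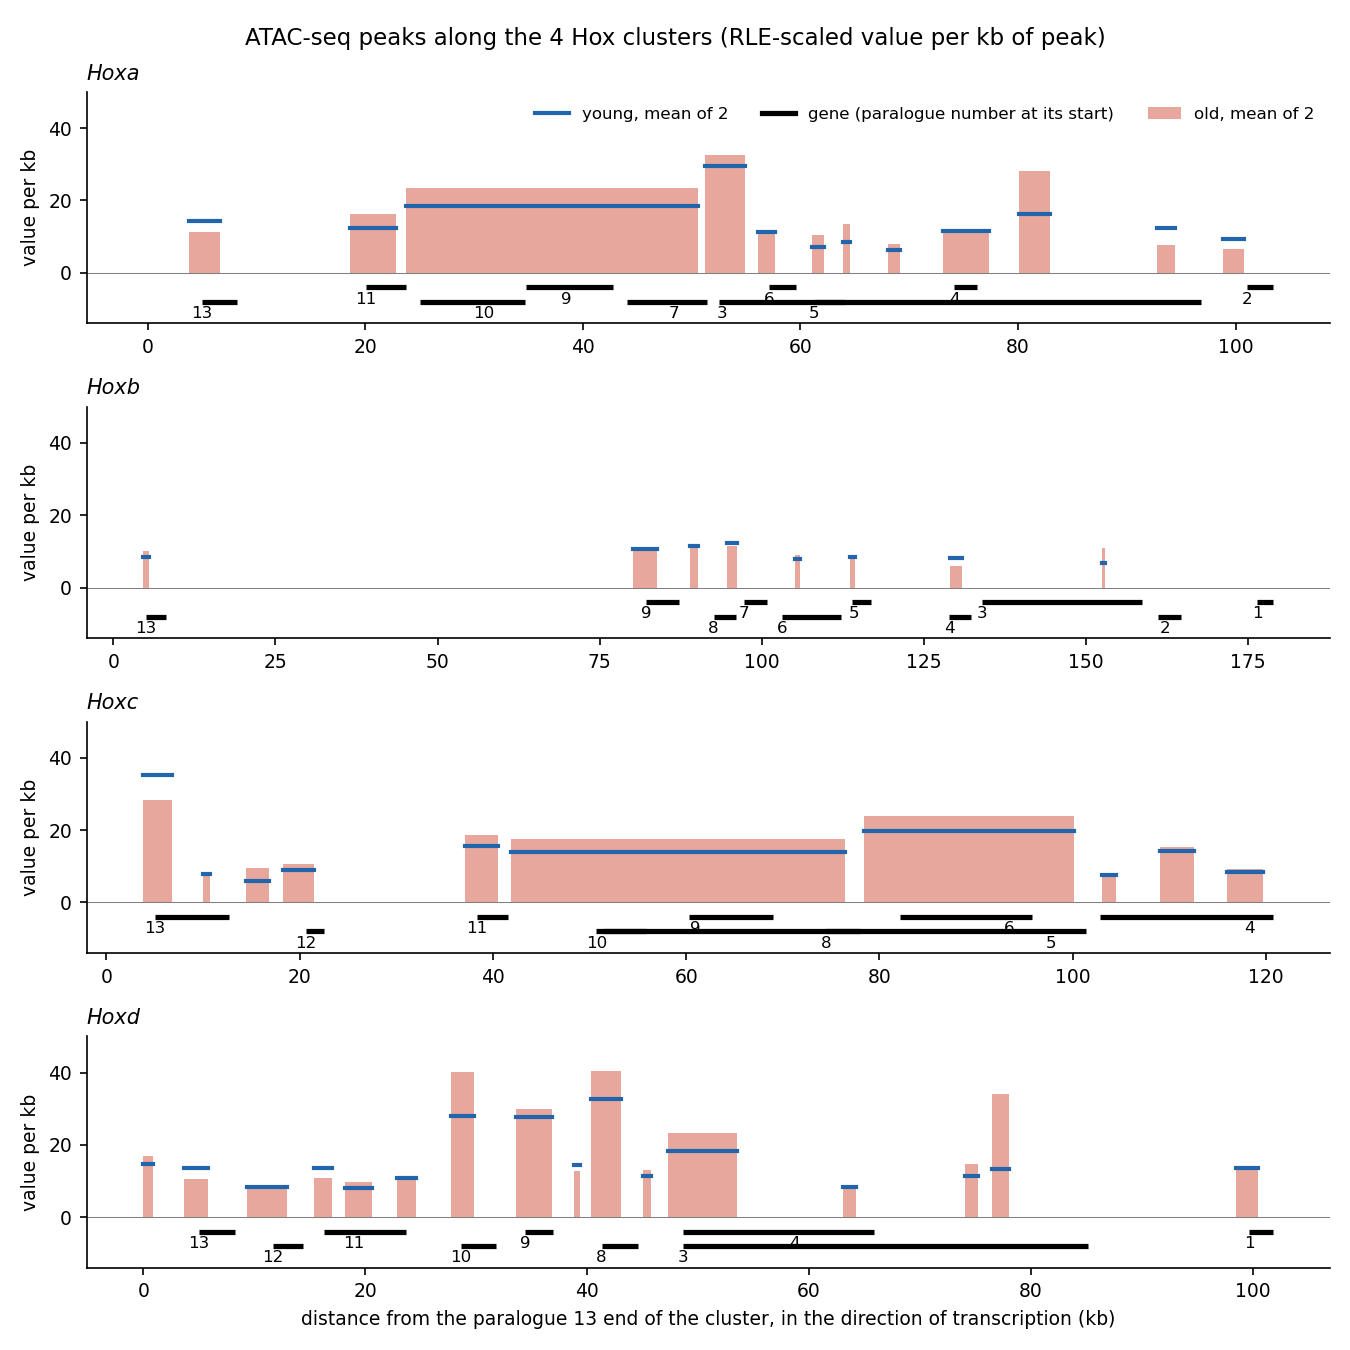
ATAC-seq peaks along each Hox cluster, with the distance from the paralogue 13 end in kb on the x axis and the RLE-scaled value per kb of peak on the y axis. Red bars are the mean of the 2 old samples, blue lines the mean of the 2 young samples, and black lines the genes with the paralogue number at the start. Wide blocks fill the middle of Hoxa and Hoxc, whereas the Hoxb peaks are narrow and stay below 13 per kb.

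The start of the gene, taken as the start of its principal coding transcript in GENCODE, was in a peak for 30 of 38 Hox genes. Over all protein-coding genes of the annotation, 65.3% had such a start in a peak (14252 of 21840). By cluster, the start was in a peak for 9 of 9 genes in Hoxc, 9 of 9 in Hoxd, 9 of 10 in Hoxa and 3 of 10 in Hoxb. The exception in Hoxa was Hoxa2, an anterior gene of the hindbrain, whose nearest peak began 270 bases upstream. In Hoxb the exceptions were Hoxb1, Hoxb2, Hoxb3, Hoxb4, Hoxb6, Hoxb7 and Hoxb8, and Hoxb1 and Hoxb2 had no peak at all over the gene or the 5 kb before it. The Hoxb4 start lay 134 bases from the edge of a peak in its gene body, and the methods give steps of 100 bp for the calling of peaks. By position, starts in peaks were 16 of 16 for paralogues 9 to 13, 8 of 11 for paralogues 5 to 8 and 6 of 11 for paralogues 1 to 4. Outside Hoxb, the last share was 6 of 7. Hoxb9 and Hoxb13 were thus among the 3 Hoxb genes with an open start, and Hoxb5 was the third. For Hoxd3 only 1 of 3 principal starts and for Hoxd4 only 1 of 2 was in a peak.

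**Figure D2:**
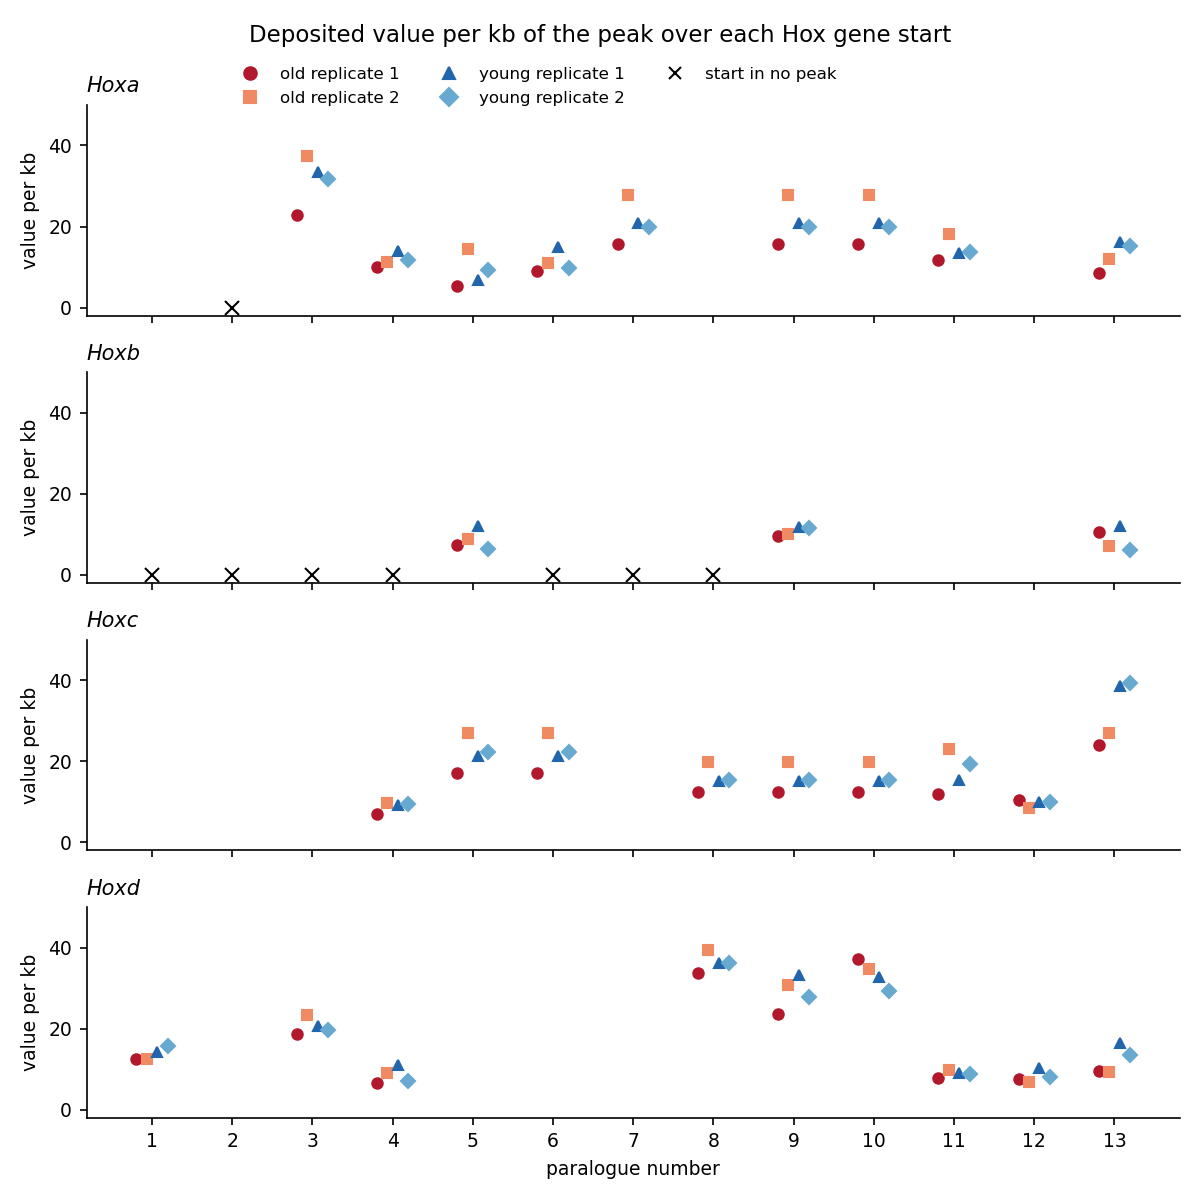
Deposited value per kb (y axis) of the peak over the start of each Hox gene, by paralogue number (x axis), with one panel per cluster and one symbol per sample. Crosses mark the 8 genes whose start was in no peak, 7 of them in Hoxb. Genes that share a wide peak show the same values.

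The starts differed in the density of the signal. By the mean of the 4 samples the densest was Hoxd8, with 33.8 and 39.4 per kb in the old and 36.2 and 36.1 in the young samples (deposited values). Hoxd10, a posterior gene, had 37.3 and 34.7 in the old and 32.7 and 29.3 in the young samples. Hoxc13, known for its role in hair and nail, had 24.0 and 27.0 in the old and 38.6 and 39.3 in the young samples. Hoxd8 was thus the densest start in old replicate 2 only, Hoxd10 in old replicate 1 and Hoxc13 in both young samples. The Hoxa3 start had a mean of 31.3 per kb. At the other end, the Hoxd12 start peak had a mean of 8.19, that of Hoxd4 8.41 and that of Hoxb5 8.68 per kb. Within the posterior paralogues 9 to 13, start peaks spanned 8.19 to 33.5 per kb, against 8.41 to 31.3 for paralogues 1 to 4. The upper value of paralogues 1 to 4 is that of the Hoxa3 start (chr6:52213115). The Hoxa3 gene model runs across Hoxa4, Hoxa5 and Hoxa6, so this start lies between Hoxa6 and Hoxa7. The next highest value of paralogues 1 to 4 was 20.6, at the Hoxd3 start. The median over the 26 Hox peaks with a protein-coding start was 13.4 per kb, against 29.4 per kb over the 14705 peaks of the genome that hold one.

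Hox start regions were CpG-rich. The observed-to-expected CpG ratio of the 300 bases around the start (250 before, 50 after) had a median of 0.781 over the 30 genes with the start in a peak (range 0.280 to 1.23) and of 0.638 over the 8 others (0.322 to 0.970), against 0.384 over 32851 RefSeq promoter windows of the same length. Hoxb8, with no peak at its start, had a ratio of 0.970. The median GC content was 58.3% with a start peak and 45.8% without, against 52.7% over the RefSeq promoter windows. Promoter sequences of 4 genes are shown because they span these patterns, the 2 starts with the highest mean value per kb, a posterior gene and a Hoxb gene outside peaks. Each gives the 200 bases before the RefSeq start, 5′ to 3′ on the plus strand in GRCm38.p6, with CG dinucleotides in capitals. They come from chr2:74704415-74704614 (Hoxd8), chr2:74691691-74691890 (Hoxd10), chr2:74668025-74668224 (Hoxd13) and chr11:96318067-96318266 (Hoxb4).
Hoxd8 promoter: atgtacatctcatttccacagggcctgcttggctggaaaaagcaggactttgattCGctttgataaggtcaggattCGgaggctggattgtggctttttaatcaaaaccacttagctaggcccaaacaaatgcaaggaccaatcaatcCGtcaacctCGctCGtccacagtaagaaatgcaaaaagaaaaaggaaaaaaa
Hoxd10 promoter: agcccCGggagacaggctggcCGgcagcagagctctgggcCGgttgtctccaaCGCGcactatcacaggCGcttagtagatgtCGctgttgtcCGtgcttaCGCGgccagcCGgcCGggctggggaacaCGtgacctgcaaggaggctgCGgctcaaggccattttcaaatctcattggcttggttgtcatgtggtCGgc
Hoxd13 promoter: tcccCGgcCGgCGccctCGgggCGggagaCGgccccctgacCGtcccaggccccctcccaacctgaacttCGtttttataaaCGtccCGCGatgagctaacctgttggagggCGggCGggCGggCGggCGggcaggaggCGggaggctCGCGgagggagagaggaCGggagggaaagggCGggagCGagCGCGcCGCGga
Hoxb4 promoter: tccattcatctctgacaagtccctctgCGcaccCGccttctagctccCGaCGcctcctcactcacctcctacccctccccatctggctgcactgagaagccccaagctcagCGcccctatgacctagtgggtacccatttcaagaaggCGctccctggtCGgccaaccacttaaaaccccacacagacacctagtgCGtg
These windows held 5 CG dinucleotides for Hoxd8, 15 for Hoxd10, 26 for Hoxd13 and 8 for Hoxb4. The Hoxd8 window, at the start with the highest mean, thus had fewer of them than the Hoxb4 window that was in no peak.

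Much of the Hox signal, and of the Hox peak length, was in 3 very wide peaks. A peak of 26.8 kb ran across Hoxa7, Hoxa9 and Hoxa10 with Mir196b (chr6:52215301-52242100), one of 34.5 kb across Hoxc10, Hoxc9 and Hoxc8 with Mir196a-2 (chr15:102958001-102992500), and one of 21.7 kb across Hoxc6 and Hoxc5 with Mir615 (chr15:102994501-103016200). They ranked 104, 61 and 170 by width among the 117282 peaks, of which 211 were at least 20 kb wide. The remaining 43 Hox peaks were narrower than 8 kb, and no peak of Hoxb or Hoxd reached 8 kb. Neighbouring genes of Hoxa and Hoxc thus shared wide peaks, whereas in Hoxd the starts of Hoxd8, Hoxd9 and Hoxd10 each had a peak of their own between 2.1 and 3.2 kb. The 3 wide peaks held 50.1% and 56.2% of the summed Hox value in the old and 50.2% and 51.5% in the young samples. They spanned 83 kb, while all Hox peaks spanned 52.9 kb in Hoxa, 11.1 kb in Hoxb, 77.7 kb in Hoxc and 33.6 kb in Hoxd. Their RLE-scaled value per kb was 18.0 and 24.1 in the old and 17.4 and 16.3 in the young samples. In the 43 narrower Hox peaks it was 16.1 and 16.9 in the old and 15.5 and 13.8 in the young samples. GC content of the wide peaks was between 49.9% and 51.4%, near the 52.9% median of all 46 Hox peaks.

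The deposited value of the Hoxa7 to Hoxa10 peak was 421 and 742 in the old and 561 and 532 in the young samples (replicates 1 and 2). The Hoxc10 to Hoxc8 peak had 425, 686, 519 and 534 in the same order, and the Hoxc6 to Hoxc5 peak 369, 588, 461 and 484. In all 3, old replicate 1 was the lowest sample and old replicate 2 the highest, with both young samples between them. After RLE scaling, old replicate 1 came to the level of the young samples or just above it, and old replicate 2 stayed the highest. The RLE-scaled difference between the old replicates was 0.51, 0.38 and 0.36 on the log2 scale, while its median over the 1824 peaks of at least 8 kb was 0.02, with a 90th percentile of 0.43 that the Hoxa domain exceeded and both Hoxc domains did not. The log2 fold change of old over young was 0.32 (SE 0.14) for the Hoxa domain, 0.33 (SE 0.13) for the Hoxc10 to Hoxc8 domain and 0.27 (SE 0.13) for the Hoxc6 to Hoxc5 domain. None passed the test (limma, Benjamini-Hochberg adjusted p = 0.262, 0.209 and 0.311). Without old replicate 1 the log2 fold changes were 0.57, 0.51 and 0.45, so the difference rests largely on old replicate 2. That fit leaves 1 old sample, so only its effect sizes are read here. Without that sample the log2 fold change of the Hoxc10 to Hoxc8 domain was 0.14.

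To ask whether Hox accessibility differed with age, limma was fitted to the log2 of RLE-scaled values plus 1 over all peaks, with an adjusted p under 0.01 as the threshold. Of the 46 Hox peaks, 0 were called lower in old MSCs (0.0307% of all peaks were) and 0 were called higher (0.0256% of all peaks were). At an unadjusted p under 0.05 there were 8 Hox peaks, or 17.4%, close to the 16.4% of all peaks. Of these, 7 were higher (15.2%, against 7.49% of all peaks) and 1 was lower in old MSCs (2.17%, against 8.87%). With limma-voom on the recovered counts, 0 Hox peaks were called lower and 1 was called higher, against 95 lower and 49 higher among all 117282 peaks. The RLE-scaled old values both lay under the lower young value at 5 of 46 Hox peaks, or 10.9%, against 24.2% of all peaks. They both lay over the higher young value at 14 of 46, or 30.4%, against 23.2% of all peaks. The median log2 fold change was 0.14 over the Hox peaks and 0.0011 over all peaks, and the medians of the 4 old-young pairs ran from -0.02 to 0.33. Under RLE scaling 30.4% of the Hox peaks and 49.9% of all peaks had a negative fold change. In the values as deposited, the Hox median was -0.10 and 67.4% of Hox peaks were lower, against -0.27 and 74.6% for all peaks. The sign of the Hox median thus followed the scaling, and in both scalings it was above that of all peaks.

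**Figure D3:**
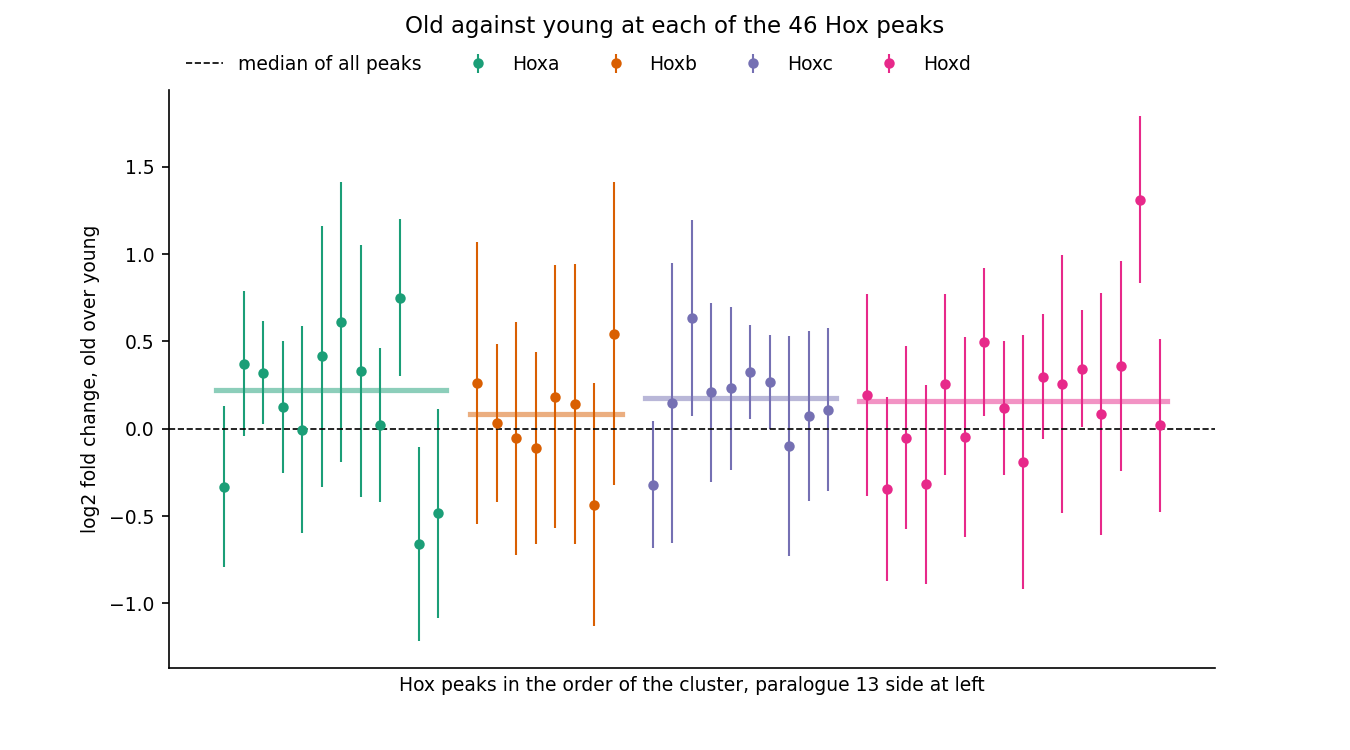
Log2 fold change of old over young (y axis) at the 46 Hox peaks, ordered along each cluster from the paralogue 13 side (x axis). Points are limma estimates with 95% confidence intervals, thick lines the median of each cluster and the dashed line the median of all peaks. The Hoxd3 intronic peak stands highest at 1.31, and most intervals include 0.

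By cluster, the RLE-scaled value per kb of Hoxa was 17.0 and 22.8 in the old and 17.6 and 15.4 in the young samples. The old samples lay on both sides of young replicate 1, and the groups overlapped (log2 ratio of means 0.27, two-sided exact permutation p = 0.667). Hoxc had 16.4 and 20.5 in the old and 15.7 and 15.3 in the young samples, and Hoxd 20.7 and 19.8 in the old and 18.2 and 15.6 in the young samples. In both clusters the groups did not overlap, with log2 ratios of 0.25 and 0.26 and an exact permutation p of 0.333, the smallest that 2 against 2 samples can give. Hoxb had 10.4 and 9.40 in the old and 10.5 and 9.30 in the young samples (log2 ratio -0.0029, exact permutation p = 1). With the values as deposited this turned round. The groups then overlapped in Hoxc and Hoxd (exact permutation p = 1 in each), and in Hoxb both old values, given above, were below both young values (exact permutation p = 0.333). The median log2 fold change per peak was 0.22 in Hoxa, 0.18 in Hoxc, 0.16 in Hoxd and 0.09 in Hoxb. All peaks of chromosome 11, on which Hoxb lies, had a median of 0.10 themselves, whereas the medians of chromosomes 2, 6 and 15 were between -0.01 and 0.02. The Hox peaks with a protein-coding start had a median of 0.17, and all peaks with such a start -0.03.

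The Hox peak with the largest difference was in Hoxd, in an intron of Hoxd3 (chr2:74739801-74741300, 1.5 kb). Hoxd3 is an anterior paralogue known for the patterning of the upper spine. This peak began 182 bases past a Hoxd3 coding transcript start that itself was in no peak, and it contained no exon of a Hox gene. Its RLE-scaled value was 49.5 and 52.5 in the old and 21.9 and 18.1 in the young samples. Both old samples were thus above both young samples by a wide margin compared with the gap within each group. The log2 fold change was 1.31 (SE 0.23, 95% confidence interval 0.84 to 1.79), and the adjusted p was 0.0146 (limma, Benjamini-Hochberg), just above the threshold. It passed with limma-voom (adjusted p = 0.00797) and did not pass without young replicate 1 (0.120) or young replicate 2 (0.305), where the log2 fold change was 1.44 and 1.18. With values as deposited, 40.2 and 52.8 in the old and 23.4 and 20.7 in the young samples, the log2 fold change was 1.03. The neighbouring Hoxd3 peak upstream (chr2:74737401-74738500) had RLE-scaled values of 14.6 and 17.7 in the old and 10.6 and 14.2 in the young samples (log2 fold change 0.36, SE 0.29).

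The sequence of 300 bases of this peak (chr2:74739891-74740190, plus strand, GRCm38.p6) is shown because of that difference. Within the peak, the window was chosen to be free of exons and to hold the most letters of the motifs named below. Its match therefore follows from that choice. The whole peak held 1 match to TTTATGG and 0 to the other motifs. Capitals mark TTTATGG, a sequence that posterior HOX proteins are known to bind.
Hoxd3 intronic peak: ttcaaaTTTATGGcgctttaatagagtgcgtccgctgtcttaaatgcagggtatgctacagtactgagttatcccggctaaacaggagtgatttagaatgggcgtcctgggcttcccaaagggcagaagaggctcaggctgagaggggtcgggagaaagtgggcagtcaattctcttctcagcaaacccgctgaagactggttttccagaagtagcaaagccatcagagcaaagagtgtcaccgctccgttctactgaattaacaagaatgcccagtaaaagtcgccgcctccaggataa
Counted on both strands, TTTATGG occurred 50 times in the Hox peaks, in 17 of the 46, or 0.285 times per kb, against 0.142 times per kb over all peaks. Of these matches 31 were in the 3 wide peaks. The homeodomain core TAATTA had 0.257 matches per kb in Hox peaks and 0.247 in all peaks. TGATTTAT, a joint site of PBX and HOX proteins whose matches can overlap those of TTTATGG, had 0.0570 and 0.0453 per kb, and AGGGGGCGC, part of the site of the insulator protein CTCF, had 3 matches in Hox peaks, or 0.0171 against 0.0117 per kb. In the RefSeq promoter windows, TTTATGG was in 1 of 24 windows of Hox genes (22 genes, Hoxd4 the one with a match) and in 2.75% of all 32851 windows. A match describes the letters and does not show binding.

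In Hoxa, the largest difference was at a Hoxa3 peak (chr6:52182901-52185800, 2.9 kb), of which 94.9% was intronic and 5.1% untranslated exon around an alternative Hoxa3 start. The long noncoding gene Hoxaas3 also runs through it. Hoxa3 is known for the patterning of the throat and neck. RLE-scaled values were 65.4 and 97.6 in the old and 48.8 and 45.4 in the young samples. Both old samples were above the young samples and differed from each other more than the young samples did. The log2 fold change was 0.75 (SE 0.21), which did not pass (limma adjusted p = 0.0846), and without old replicate 2 it was 0.48. Other peaks of the anterior Hoxa genes were lower in old samples by value. The peak over the last exons of Hoxa3 (chr6:52171401-52173100) had 12.5 and 13.4 in the old and 22.2 and 19.9 in the young samples, with a log2 fold change of -0.66 (SE 0.27, limma adjusted p = 0.222). The peak upstream of Hoxa2 (chr6:52165101-52167000) had 15.1 and 10.4 in the old and 19.2 and 16.6 in the young samples, with -0.48 (SE 0.28). Peaks of Hoxa3 thus lay on both sides of 0, and neither direction passed the test.

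**Figure D4:**
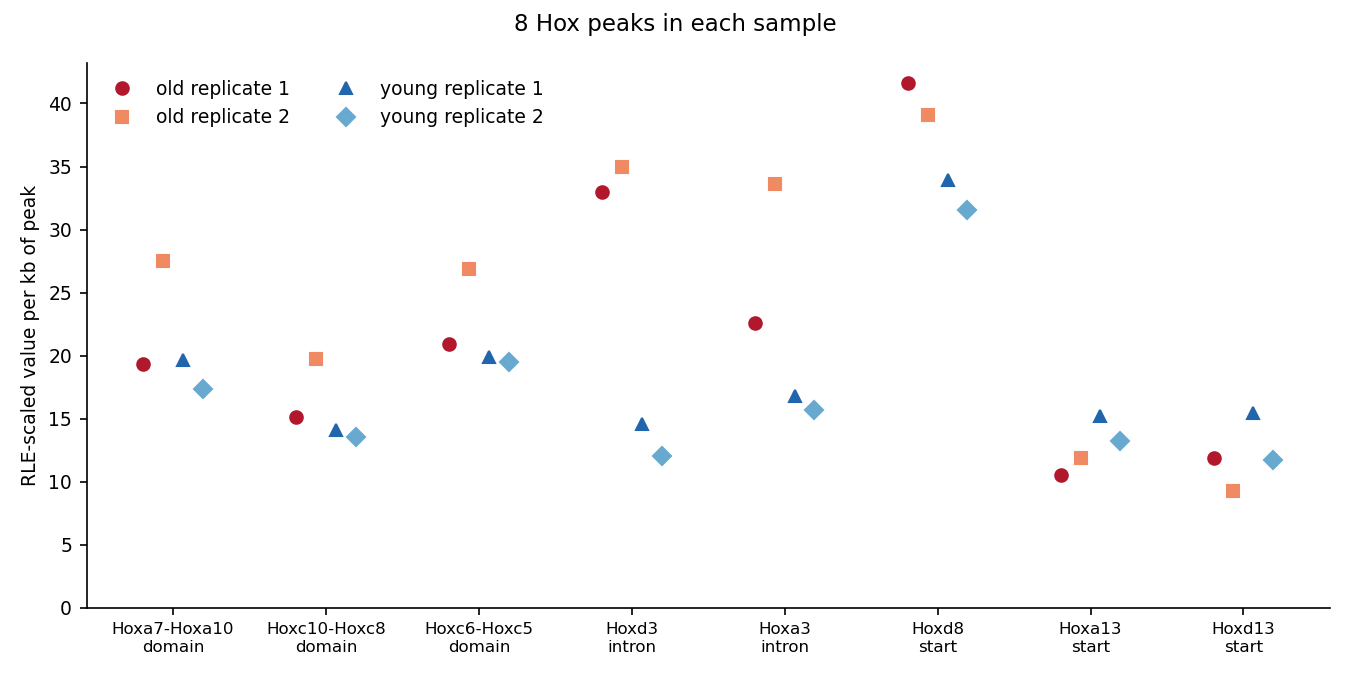
RLE-scaled value per kb (y axis) of 8 Hox peaks (x axis) in each of the 4 samples. The old samples of the Hoxd3 intron lie far above the young samples, the 3 wide domains are led by old replicate 2, and both Hoxa13 old samples lie below the young samples.

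Further peaks with both old values above the young values included some at posterior genes. The Hoxd10 start peak (chr2:74691001-74693100) had RLE-scaled values of 96.4 and 72.3 in the old and 64.4 and 53.7 in the young samples, with a log2 fold change of 0.50 (SE 0.20, limma adjusted p = 0.224). A peak 3857 bases upstream of the Hoxc12 start, between genes (chr15:102930501-102932900), had 26.2 and 19.2 in the old and 14.3 and 13.9 in the young samples, with 0.64 (SE 0.27, adjusted p = 0.245). In Hoxb, a 0.4 kb intronic peak of Hoxb3 (chr11:96341901-96342300) had 3.87 and 4.88 in the old and 2.99 and 2.37 in the young samples, with 0.55 (SE 0.41). These values rest on few counts, since 3 counts are worth about 1.

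The 4 paralogue 13 starts mark the posterior end of the clusters. At Hoxa13 (chr6:52259201-52262100), which with Hoxd13 forms the hand and foot, RLE-scaled values were 30.6 and 34.5 in the old and 44.1 and 38.3 in the young samples, with a log2 fold change of -0.33 (SE 0.22, limma adjusted p = 0.480). The Hoxc13 start peak (chr15:102919901-102922900) had 88.6 and 80.5 in the old and 108 and 103 in the young samples, with -0.32 (SE 0.17, adjusted p = 0.372). Hoxd13 (chr2:74667001-74669100) had 25.0 and 19.5 in the old and 32.5 and 24.6 in the young samples, with -0.34 (SE 0.25), and here the groups overlapped. The paralogue 13 starts of Hoxa, Hoxc and Hoxd were therefore lower in old samples by value, and that of Hoxb13 (11.6 and 6.40 in the old, 10.3 and 4.75 in the young samples) was not. None passed the test. The remaining peak below the young samples in both old samples lay over the 5′ end of the Hoxd11 gene model, 2023 bases from its coding start (chr2:74678701-74680300), with 13.8 and 21.35 in the old and 21.89 and 21.37 in the young samples, so that old replicate 2 was level with the young samples.

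The densest peak of each cluster, by the mean of the 4 samples, did not pass the test either. These were the Hoxa3 and Hoxa7 peak (chr6:52211001-52214600), with a log2 fold change of 0.13 (SE 0.18), the Hoxb7 and Hoxb8 peak (chr11:96284001-96285500), with -0.11 (SE 0.26), the Hoxc13 start and the Hoxd8 start (chr2:74703701-74706400), with 0.30 (SE 0.17). The Hoxd8 start had RLE-scaled values of 112 and 106 in the old and 91.6 and 85.2 in the young samples, so that both old samples were above both young samples.

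Genes that work with the Hox genes were read in the same fit. The 5′ ends of all 9 TALE cofactor genes were in peaks, and 0 of their 101 peaks were called in either direction, with 19 at an unadjusted p under 0.05 (16.4% of all peaks were) and a lowest adjusted p of 0.071 in limma, at a Meis1 peak (log2 fold change -0.86, SE 0.23). Of 17 noncoding RNA and microRNA genes of the clusters, 13 had a peak, 20 of their 25 peaks were Hox peaks as well, and 0 were called (5 at an unadjusted p under 0.05, against 16.4% of all peaks). Hotair in Hoxc and Hoxb3os in Hoxb had no peak. Of 11 genes beside the clusters, Evx1 had no peak, and 0 of 51 peaks were called (5 at an unadjusted p under 0.05, against 16.4% of all peaks, lowest limma adjusted p = 0.0231 at a Smug1 peak, log2 fold change 2.38, SE 0.47).

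The median change of the clusters depended on the scaling between samples. After correction of each sample for GC content and peak width, the Hox median was 0.02 and 47.8% of Hox peaks were lower, against 30.4% before. The median of all peaks in that setting was -0.015. Hox peaks were richer in GC (median 52.9%, all peaks 46.1%) and wider (median 1950 bp, all peaks 1200 bp). With library totals without mitochondrial peaks the Hox median was -0.14, above the median of -0.32 over all peaks.

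**Figure D5:**
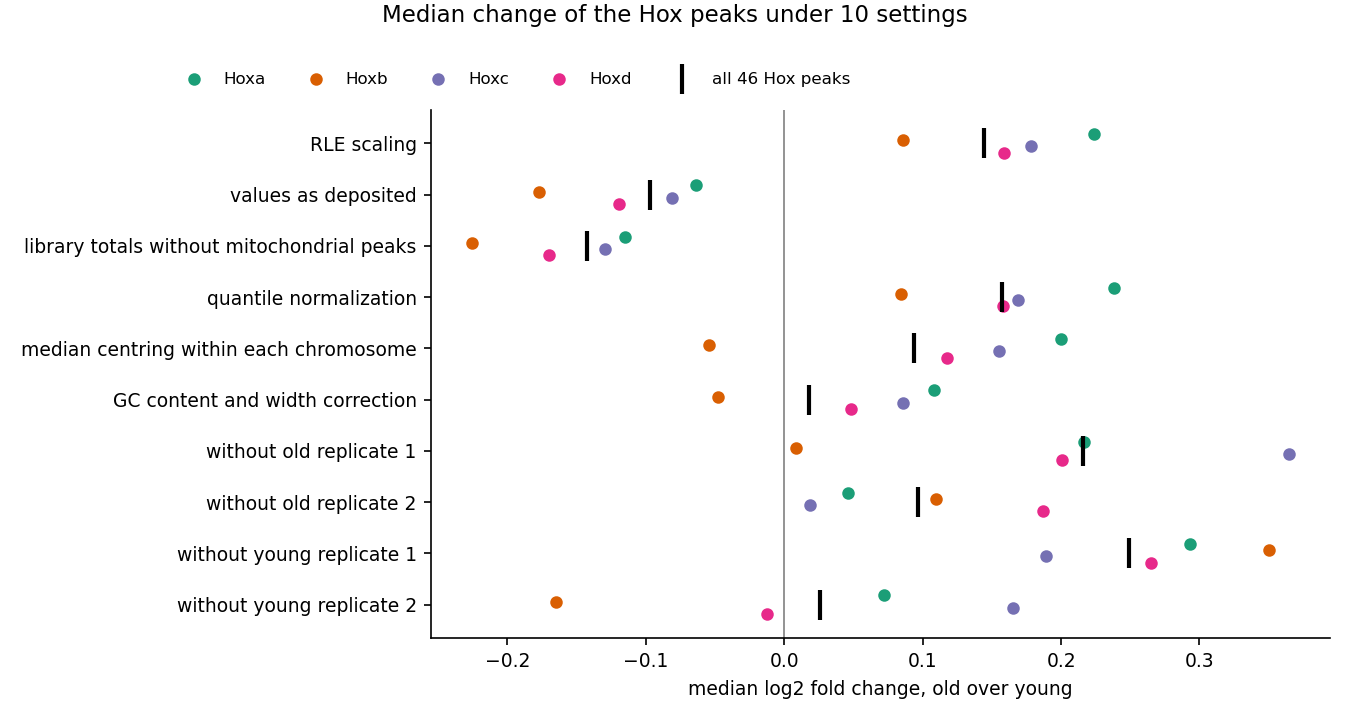
Median log2 fold change of old over young (x axis) of the Hox peaks under 10 settings (y axis), for each cluster (points) and all 46 peaks (vertical ticks). The median of all 46 peaks was negative with values as deposited (-0.10) and with library totals without mitochondrial peaks (-0.14) and positive in the other settings drawn. Over all 117282 peaks the median was -0.27 as deposited and -0.32 without mitochondrial peaks.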

How the data were processed

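ATAC-seq values of 2 old and 2 young MSC samples were used. The authors deposited 1 value for each sample and peak, named RPKM in the table header and treated here as a score, since the values were whole multiples of 1 step per library (100% of values) and were not divided by peak width. Per the labels, Bowtie2 and Picard were used with mm10. The methods, which describe this for cells cultured at 2 oxygen levels, add chromstaR with 300 bp bins, 100 bp steps and mapping quality 15. Bins that overlap can count a read more than once.

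Values were divided by RLE factors, log2(value + 1) was fitted with limma 3.58.1 in R 4.3.3 (trend and robust moderation) over all 117282 peaks, and p was adjusted by Benjamini-Hochberg with a threshold of 0.01. Fold changes on this scale understate changes of weak peaks. edgeR was not used, since the deposited values were scaled to library totals, and limma-voom on the recovered counts was an alternative. The limma step was tested on simulated data. Changes were placed only in peaks above the median value, with the same relative spread for all peaks. That test therefore does not cover weak peaks. Annotation was GENCODE vM21 on GRCm38, with sequences from RefSeq. Named peaks were the 5 largest changes in each direction among those with one sign in all 4 old-young pairs, the densest peak of each cluster and the widest peak. Members and lists were chosen with earlier results of these data known. Alternatives were other scalings, pseudocounts 0.1 and 5, a filter on weak peaks, other member rules, a replicate block, plain moderation, limma-voom and leaving out each sample. Counting error limits weak peaks, since Hox peaks held as few as 8 counts.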

Additional observations from a re-analysis of the deposited data

How the results depend on the processing

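With values as deposited, the median log2 fold change was -0.10 over all Hox peaks, -0.063 in Hoxa, -0.18 in Hoxb, -0.081 in Hoxc and -0.12 in Hoxd, and 67.4% of Hox peaks were lower. With library totals without mitochondrial peaks these were -0.14, -0.12, -0.23, -0.13, -0.17 and 76.1%. With the GC content and width correction, 47.8% were lower. Over all 117282 peaks the median was -0.27 as deposited, -0.32 without mitochondrial peaks and -0.015 with the GC content and width correction. The count of Hox peaks called lower was 0 in every alternative. The count called higher was 1 with limma-voom (49 of all peaks) and 1 with the replicate block (362 of all peaks), each time the Hoxd3 intronic peak. Fits that leave out a replicate keep 1 sample in a group, so their effect sizes are given. Without old replicate 1 the log2 fold change was 1.35 at the Hoxd3 and 1.03 at the Hoxa3 intronic peak. Without old replicate 2 it was 1.28 at the Hoxd3 intronic peak and 0.71 at the Hoxd10 peak. In the replicate block fit and without an old replicate, limma gave every peak the variance of the trend, which makes these p-values small, and a lone sample was assumed to vary like the other group. The numbers are not stated to pair samples, and deviations of same-numbered samples correlated with -0.0993. Leaving out a replicate gave medians of 0.026 (without young replicate 2) to 0.25 (without young replicate 1) over all Hox peaks, 0.046 (without old replicate 2) to 0.29 in Hoxa, 0.019 to 0.36 in Hoxc, -0.17 to 0.35 in Hoxb and -0.012 to 0.27 in Hoxd, and 23.9% to 47.8% lower. Of the values of the 14 named peaks under the alternatives, 195 kept direction and side of the threshold, 7 came past it and 7 changed sign. The densest Hoxa peak had -0.16 as deposited, -0.21 without mitochondrial peaks, -0.0060 with the GC correction and -0.067 to 0.33 with a replicate left out, the densest Hoxb peak -0.24 to 0.019 with a replicate left out, and the Hoxd8 start and Hoxc10 to Hoxc8 peaks -0.039 and -0.015 without mitochondrial peaks. The cause of these changes was not tested. The count of all peaks called lower and higher, 36 and 30, was 1333 and 52 as deposited, 3285 and 99 without mitochondrial peaks, 169 and 85 with the GC correction, 82 and 41 with median centring within chromosomes, 53 and 42 with quantile normalization, 95 and 49 with limma-voom, 907 and 362 with the replicate block, 11 and 13 with pseudocount 0.1, 54 and 38 with pseudocount 5, 13 and 12 without the weakest peaks, and 0 and 0 with plain moderation. With 1 replicate left out it was 0 to 6476 lower and 0 to 3880 higher.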

Other observations

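Genes that set limb identity gave values beside the Hox code. Pitx1, a homeodomain gene that marks the hind limb, had a start peak with deposited values of 10.5 and 21.8 per kb in the old and 7.37 and 7.93 in the young samples. Both old samples were above both young samples, with a log2 fold change of 1.18 after RLE scaling (limma adjusted p = 0.0622, not past the threshold). Summed over its 3 peaks, Pitx1 had 175 and 262 in the old and 147 and 141 in the young samples, and the lowest adjusted p of these peaks was 0.0217 (log2 fold change 0.82, SE 0.16). The starts of Tbx4, a hind limb gene, and of Tbx5, its forelimb counterpart, were in no peak. A Tbx5 peak had a log2 fold change of -1.60 (SE 0.42, adjusted p = 0.0656). None of the 12 peaks of these 3 genes was called, and 4 had an unadjusted p under 0.05, against 16.4% of all peaks.

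Relatives of the Hox genes outside the clusters had few peaks. Of 6 ParaHox and Cdx genes, Pdx1 and Cdx4 had no peak, and 1 had its 5′ end in a peak, the brain gene Gsx1. Over the 6 peaks of the list the median log2 fold change was 0.30 after RLE scaling (0 of 6 negative, against 49.9% of all peaks) and 0.023 in the values as deposited. None was called, and 1 of 6 had an unadjusted p under 0.05 in limma, against 16.4% of all peaks. The Cdx1 peak with the lowest adjusted p (log2 fold change 0.32) was also counted for the stromal marker Pdgfrb.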
